A study of Gallus gallus with 20 samples.

Results

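The genes described here are markers of T cells, read in the liver and the pectoralis major (breast muscle) of chickens. They are taken as a reading of T cell messenger RNA in each tissue, and what other lymphocytes added to it was not tested. Rows of the deposited gene table were taken where the gene name was CD3E, CD3D, CD4, CD8A, CD247, LCK, ZAP70 or CD28. Of these 8 names, 7 were found, on 9 of the 27170 rows. CD8A is on 3 rows, of which only the row ENSGALG00000038559 held more than a few reads (1326 over all libraries, against 2 and 3). The 2 sparse rows had all of their reads in conventional liver replicate 3 and did not pass edgeR's filter on low counts, and CD8A below means the row with 1326 reads. No row carries the name CD4. A row that the table describes as the CD4 molecule (ENSGALG00000014477) is shown beside the members and is not counted among them.

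The birds were a mixed-sex flock called KRC in the labels, slaughtered at 91 days. Conventional birds ate commercial feed, and organic birds ate feed of organic raw materials and had an outdoor Ruzi grass pasture from day 21, so that feed and pasture changed together and cannot be told apart. Each system held 125 birds in 5 indoor pens of 1 poultry house. Each of the 4 groups (conventional liver, organic liver, conventional breast muscle, organic breast muscle) has 5 libraries, 20 in all. The labels do not give the pen of a sampled bird, its sex, or whether the liver and the muscle came from the same bird, and p-values measure the spread between these libraries. Total counts were between 14065269 and 20488526 reads in liver, where the deepest library is organic replicate 1 and the next has 15175691, and between 12699692 and 13417005 in breast muscle. The tissues matched their labels. All 11 hepatocyte markers were higher in liver, with a median log2 difference of 15.3, and all 8 muscle fibre markers were higher in muscle, with a median of -15.4 for liver over breast muscle (edgeR's quasi-likelihood test, Benjamini-Hochberg adjusted p under 0.05 for each).

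A T cell recognises antigen through its T cell receptor, whose antigen-binding chains have no signalling tail of their own and depend on the CD3 chains and the zeta chain that travel with them. When the receptor is engaged, the kinase LCK, carried by the coreceptors CD4 and CD8, phosphorylates these chains, and the kinase ZAP70 docks on them and passes the signal on. CD28 gives the second, costimulatory signal that a naive T cell needs. The liver is rich in resident and passing lymphocytes, whereas skeletal muscle at rest holds few. In a bulk sample, fewer cells of a type and less RNA per cell cannot be told apart.

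In genome build GRCg6a, CD3E (ENSGALG00000007416) and CD3D (ENSGALG00000007418) lie next to each other on chromosome 24, at 5480338 to 5485277 on the plus strand and at 5487325 to 5489870 on the minus strand. CD247 lies on chromosome 1 from 93019252 to 93065622, ZAP70 on chromosome 28 from 1911962 to 1933263 and CD28 on chromosome 7 from 13436135 to 13454946. None of these 5 genes overlaps another row of the table. LCK, on chromosome 23 from 5273969 to 5292034, overlaps HDAC1 on the same strand and ZBTB8B on the opposite one, which hold 3925 and 3043 reads against 1793 for LCK. CD8A, on chromosome 4 from 85657238 to 85736578, overlaps 6 unnamed rows with 5 to 99 reads each. Rows described as CD8 alpha-like number 3 in the table, with 81, 99 and 129 reads, and those with 81 and 99 reads are among these 6. All 6 overlapping rows are on the strand of CD8A, so that counting by strand could not tell them from it. The sources used here do not say whether counting used strand or how reads shared by overlapping rows were treated. The values of LCK and CD8A are therefore less certain than those of the other members.

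On the FPKM scale, which allows for gene length, the CD3 chains had the highest levels in both tissues. In liver, CD3E was at 24.0 ± 7.68 FPKM (SD, n = 10) and CD3D at 23.4 ± 7.30, and CD3E was the higher of the pair in 6 of 10 libraries, so that their order is within the spread. The zeta chain CD247 came next at 8.04 ± 2.07 FPKM and did not overlap CD3D in range. The coreceptor chain CD8A was at 4.21 ± 2.40 FPKM and the kinase ZAP70 at 3.41 ± 1.30, and their order held in 6 of 10 libraries. LCK was at 2.34 ± 0.850 FPKM, below ZAP70 in 10 of 10 libraries although their ranges overlapped. CD28 at 2.09 ± 1.27 and the CD4 row at 1.91 ± 0.622 FPKM were not separated from each other, with CD28 the higher in 5 of 10 libraries.

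In breast muscle CD3D was at 4.40 ± 1.72 FPKM (SD, n = 10) and CD3E at 3.84 ± 1.28, again within their spread. CD247 followed at 2.06 ± 0.730 FPKM, below CD3E in 10 of 10 libraries. A gap then separated CD247 from a group of low genes, with no overlap in range between CD247 and CD8A. CD8A (0.662 FPKM), ZAP70 (0.647), the CD4 row (0.499) and LCK (0.496) were not ordered beyond their spread. CD28 was lowest at 0.190 ± 0.141 FPKM, on 1 to 15 reads a library, and did not pass edgeR's filter on low counts for the raising systems in muscle. DESeq2, which tested it, gave a log2 difference of -0.27 ± 0.77 (SE, adjusted p = 0.975).

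**Figure D1:**
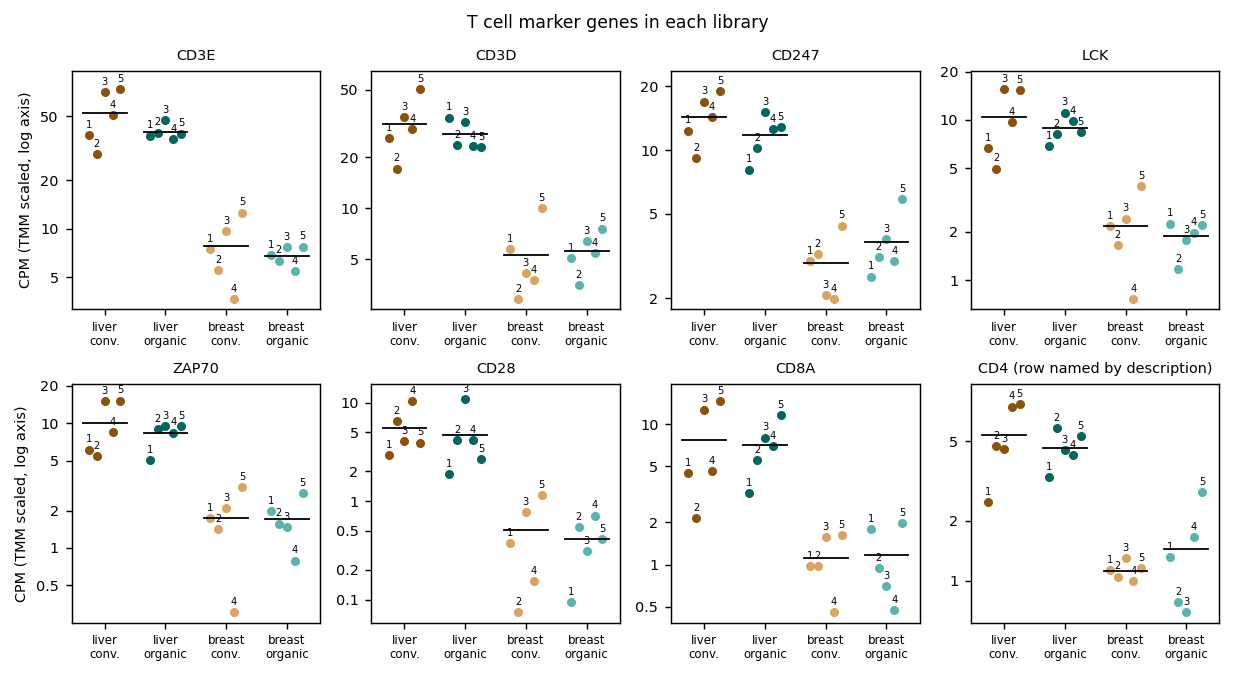
CPM (read counts scaled to library size, with TMM over all 20 libraries, log axis) of each T cell marker gene and of the row described as CD4, by tissue and raising system. Points are libraries with their replicate number and bars are group means; liver lies above breast muscle for each of the 7 members, and the raising systems overlap in both tissues.

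The main question for these genes was whether raising system changed them. In liver no member passed the test. All 7 members had a lower fitted mean in organic than in conventional liver, by 0.13 to 0.41 on the log2 scale, and for each of them the raising systems overlapped. They did not overlap for 1.21% of all genes. Of 13186 genes tested in liver, edgeR called 0 (0%), and 52.3% had a log2 fold change below 0, as all 7 members did. No member had an unadjusted p under 0.05, which 7.56% of all genes had. DESeq2 called 31 genes (0.208%), none of them a member. The members' median log2 fold change was -0.25, against -0.01 over all genes tested. The members were read in the same livers, and 6 of the 7 shared their highest pair, so that their common direction is not 7 independent observations.

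Values below are CPM scaled within each tissue, in replicate order 1 to 5. CD3E, the CD3 epsilon chain, was at 39.8, 30.6, 75.3, 52.6 and 77.9 CPM in conventional liver and at 38.9, 40.4, 48.9, 38.3 and 41.6 CPM in organic liver. Conventional replicates 3, 4 and 5 were above every organic library, and conventional replicate 2 was below all of them. The difference was -0.41 ± 0.23 (log2, SE), or 1.33-fold lower, with an adjusted p of 0.673 by edgeR and an approximate interval from -0.86 to 0.04. Its partner CD3D was at 27.1, 18, 37.1, 30.3 and 53.1 CPM in conventional and at 35.2, 24.2, 33.3, 24.9 and 24.4 CPM in organic liver. The organic libraries all lay within the conventional range, and the difference was -0.22 ± 0.24 (log2, SE; edgeR adjusted p = 0.835). It came to 0.02 without conventional replicate 5, the highest library.

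CD247, the zeta chain that carries most of the receptor's signalling motifs, was at 12.9, 9.59, 18.1, 14.7 and 19.9 CPM in conventional liver. It was at 8.29, 10.4, 15.5, 13.4 and 13.7 CPM in organic liver. Conventional replicates 3 and 5 were again highest, organic replicate 1 was lowest, and the groups overlapped (log2 difference -0.29 ± 0.22 SE, edgeR adjusted p = 0.747).

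The kinases of the pathway had the same pattern of high libraries. LCK was at 6.93, 5.2, 16.6, 9.94 and 16.2 CPM in conventional liver and at 7.03, 8.34, 11.5, 10.5 and 8.88 CPM in organic liver. ZAP70 was at 6.43, 5.71, 16.0, 8.73 and 16.1 CPM in conventional liver and at 5.23, 9.17, 9.78, 9.02 and 10.1 CPM in organic liver. For both kinases conventional replicates 3 and 5 were above every organic library, and conventional replicate 2 was below 4 of 5 organic libraries or all of them. Their log2 differences were -0.25 ± 0.30 and -0.29 ± 0.31 (SE), with edgeR adjusted p-values of 0.849 and 0.829. Without conventional replicate 3 they were -0.05 and -0.09, and without conventional replicate 5 -0.07 and -0.09.

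CD8A, which marks cytotoxic T cells and in chickens also some other lymphocytes, had the widest spread. It was at 4.64, 2.26, 13.5, 4.76 and 15.3 CPM in conventional liver and at 3.33, 5.64, 8.26, 7.44 and 12.4 CPM in organic liver. Every organic library lay within the conventional range. The log2 difference was -0.13 ± 0.51 (SE; edgeR adjusted p = 0.957), and its sign depended on the method, at 0.10 by limma on log2(FPKM + 0.1). The row described as CD4 was at 2.57, 4.95, 4.86, 7.67 and 8.08 CPM in conventional and at 3.38, 5.94, 4.64, 4.54 and 5.64 CPM in organic liver, also within the conventional range (log2 difference -0.22 ± 0.30 SE, edgeR adjusted p = 0.863).

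CD28 departed from the other members in which libraries were high. It was at 3.07, 6.84, 4.34, 10.6 and 4.13 CPM in conventional liver and at 1.91, 4.21, 11.1, 4.42 and 2.85 CPM in organic liver. Organic replicate 3 and conventional replicate 4 were highest, each at more than 10 CPM, where conventional replicates 3 and 5 lead for the other members. The log2 difference was -0.25 ± 0.47 (SE; edgeR adjusted p = 0.908), and without conventional replicate 4 it was 0.09.

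**Figure D2:**
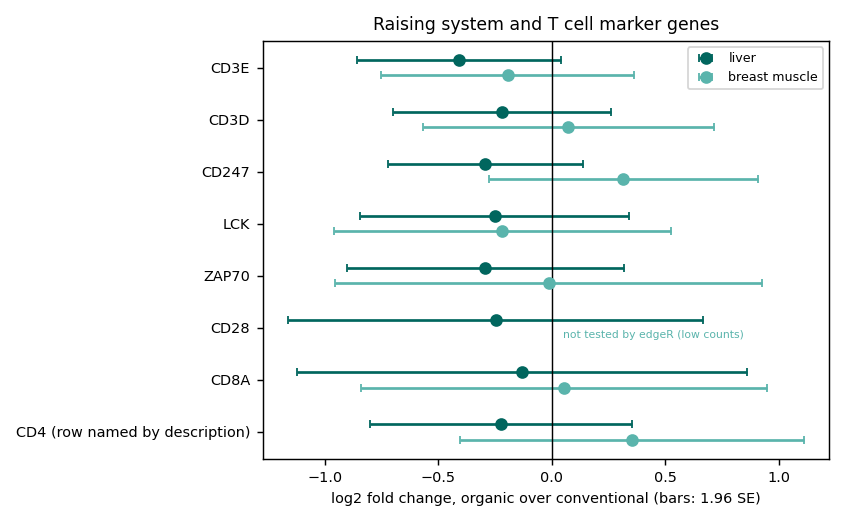
Log2 fold change of each T cell marker gene and of the row described as CD4, organic over conventional, in liver and in breast muscle, with bars for the approximate interval around each edgeR estimate. Every bar crosses 0, and the liver estimates lie between -0.41 and -0.13.

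In breast muscle no member passed the test either, and the directions were mixed. Of the 6 members tested, 3 were higher and 3 lower in organic muscle, where 52% of all genes tested were lower. The median log2 fold change of the 6 was 0.02, against -0.01 over all genes. edgeR called 0 of 12496 genes (0%) in muscle, and no member had an unadjusted p under 0.05, which 7.47% of genes had. DESeq2 called 15 genes (0.0978%), and no member was among them. The raising systems overlapped for each of the 6 members, and did not overlap for 1.23% of all genes.

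CD3E was at 7.14, 5.29, 9.30, 3.54 and 12.1 CPM in conventional muscle and at 6.46, 6.13, 7.41, 5.21 and 7.41 CPM in organic muscle. Both its highest and its lowest library were conventional (replicates 5 and 4), and the difference was -0.20 ± 0.28 (log2, SE; edgeR adjusted p = 0.892). CD3D was at 5.48, 2.79, 3.99, 3.61 and 9.66 CPM in conventional and at 4.78, 3.41, 6.22, 5.21 and 7.25 CPM in organic muscle, again inside the conventional range (log2 difference 0.07 ± 0.33 SE).

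CD247 was at 2.89, 3.08, 1.99, 1.92 and 4.24 CPM in conventional and at 2.39, 3.03, 3.67, 2.87 and 5.61 CPM in organic muscle. Organic replicate 5 was highest and conventional replicates 3 and 4 were lowest, and the groups overlapped (log2 difference 0.32 ± 0.30 SE, edgeR adjusted p = 0.816). Leaving out organic replicate 5 gave a difference of 0.08, and leaving out conventional replicate 5 gave 0.51. LCK ranged from 0.737 to 3.72 CPM in conventional and from 1.14 to 2.12 CPM in organic muscle. ZAP70 ranged from 0.295 to 2.97 and from 0.756 to 2.65 CPM, and CD8A from 0.442 to 1.56 and from 0.453 to 1.87 CPM, in the same order. Their log2 differences were -0.22 ± 0.38, -0.01 ± 0.48 and 0.05 ± 0.46 (SE). ZAP70 rested on 4 to 40 reads a library and CD8A on 6 to 24. With these SEs only large differences were detectable. In liver, on 36 to 248 reads, the SE of CD8A was 0.51, and the part of depth was not tested. The CD4 row lay between 0.958 and 1.25 CPM in conventional muscle and was at 1.24, 0.757, 0.674, 1.59 and 2.65 CPM in organic muscle, with organic libraries below, within and above the conventional range (log2 difference 0.35 ± 0.39 SE).

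Whether the effect of raising system differed between liver and muscle was tested as an interaction over all 20 libraries. Of the 7 members, 6 had an interaction below 0, as 48.7% of genes did, and members read in the same libraries are not independent. No member was called, and edgeR called 0 of 14447 genes (0%), with 5.34% at an unadjusted p under 0.05 and no member among these. DESeq2 called 0 genes. The largest interaction of a member was that of CD247, -0.60 ± 0.37 on the log2 scale (SE), with an edgeR adjusted p of 0.942.

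The tissues differed far more than the raising systems. All 7 members tested were higher in liver than in breast muscle, and for all 7 every liver library was above every muscle library. The background is high for this comparison. edgeR called 81.5% of 14447 genes, with 42.5% of all genes called as higher and 39.1% as lower in liver, and every liver library was above every muscle library for 25% of genes. DESeq2 called 68.6% of the genes it tested, and all 7 members. In size the members stood at a median log2 fold change of 2.42, against 0.07 over all genes tested, and 17.4% of genes had a log2 fold change above 2, as 6 of the 7 members had.

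CD28 had the largest ratio between tissues, 3.44 ± 0.43 on the log2 scale (SE), or 10.9-fold, on its few muscle reads. CD8A was 6.44-fold and CD3E 6.29-fold higher in liver (log2 2.69 ± 0.36 and 2.65 ± 0.20 SE). The liver range of CD3E was 15.1 to 38.1 FPKM and its muscle range 1.93 to 6.55 FPKM. CD3D at 5.36-fold, ZAP70 at 5.31-fold and LCK at 4.75-fold were close to each other. CD247 had the smallest ratio of the 7, at 3.93-fold (log2 1.98 ± 0.19 SE). The edgeR adjusted p-values of the members ran from 5.12e-11 for CD3E to 7.42e-07 for CD8A. The CD4 row was 3.89-fold higher in liver (edgeR adjusted p = 2.44e-07), with 1 liver library not above every muscle library. These ratios are relative to library size after TMM scaling over all 20 libraries, and no measure of RNA per cell was used here.

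Another 3 genes, chosen after their values were seen, are set beside the members. TARP, the row named for the T cell receptor gamma alternate reading frame protein, was 5.11-fold higher in liver (log2 2.35 ± 0.25 SE). CD8B, the partner chain of CD8A, was 7.57-fold higher (log2 2.92 ± 0.33 SE), on 1 to 7 reads in each muscle library. PTPRC (CD45), found on all leukocytes, was 3.77-fold higher (log2 1.91 ± 0.19 SE). That is below the ratio of each of the 7 members, but its gap to CD247 (log2 1.98 ± 0.19 SE) was smaller than either SE.

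Most genes of other leukocytes and blood cells were called as higher in liver as well, as were 42.5% of all genes tested. Of 14 macrophage markers tested, 14 passed the edgeR test as higher in liver, with a median log2 fold change of 3.77. TIMD4, a receptor for dying cells on resident macrophages, was at 7.57 ± 0.39. Their sums, in CPM scaled within each tissue, were 1336 to 2611 in conventional and 1495 to 2421 in organic liver. In muscle they were 91.9 to 205 and 97.5 to 208 CPM. Scaled over all 20 libraries, the liver sums were 1282 to 2532 and 1402 to 2347 CPM. The sums that follow are scaled within each tissue as well. Of 8 B cell markers tested, 7 were higher in liver and 1 lower (median 1.57), of 8 thrombocyte markers 5 were higher and 2 lower, and of 4 heterophil markers 3 were higher. The summed thrombocyte level was 57.7 to 97.2 CPM in conventional and 57.2 to 94.5 CPM in organic liver. In muscle it was no lower, at 45.1 to 110 and 59.2 to 167 CPM. The B cell and erythrocyte sums overlapped between tissues as well, and these overlaps held with scaling over all 20 libraries. Of 14 pan-leukocyte genes 11 were higher and 2 lower, with a median of 1.85. Of 8 erythrocyte markers, 5 were higher and 1 lower (median 1.49). The part that the blood and leukocyte content of each tissue has in the members' ratios was not tested.

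To set 1 member against a gene of all leukocytes, CD3E was divided by PTPRC within each library, as counts per base of gene length. The ratio was 1.91, 1.38, 1.67, 1.47 and 1.77 in conventional liver and 1.83, 1.75, 1.68, 1.47 and 1.18 in organic liver. In muscle it was 0.839, 0.885, 1.14, 0.865 and 0.977 in conventional and 1.33, 0.948, 0.968, 0.822 and 0.842 in organic libraries. The liver median was 1.68 and the muscle median 0.916, and the ranges overlapped through organic liver replicate 5 and organic muscle replicate 1. The other members were not divided by PTPRC. Their liver over muscle ratios ran from 3.93-fold for CD247 to 10.9-fold for CD28, against 3.77-fold for PTPRC, from which CD247 was not separated.

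The CD3E to PTPRC ratio did not separate the raising systems. Organic minus conventional was -0.06 on the log2 scale in liver (exact permutation p = 0.714, two-sided) and 0.05 in muscle (exact permutation p = 0.746). The ratio of CD8A to the CD4 row in liver ran from 0.680 to 4.16 in conventional and from 1.42 to 3.27 in organic libraries, and the log2 difference was 0.23 (exact permutation p = 0.675, two-sided). These were 3 tests, each with an adjusted p of 0.746, in a design of 5 against 5 libraries whose smallest possible p is 0.00794. In muscle the CD8A to CD4 ratio was not tested, because a library had fewer than 10 reads for a gene of the pair.

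**Figure D3:**
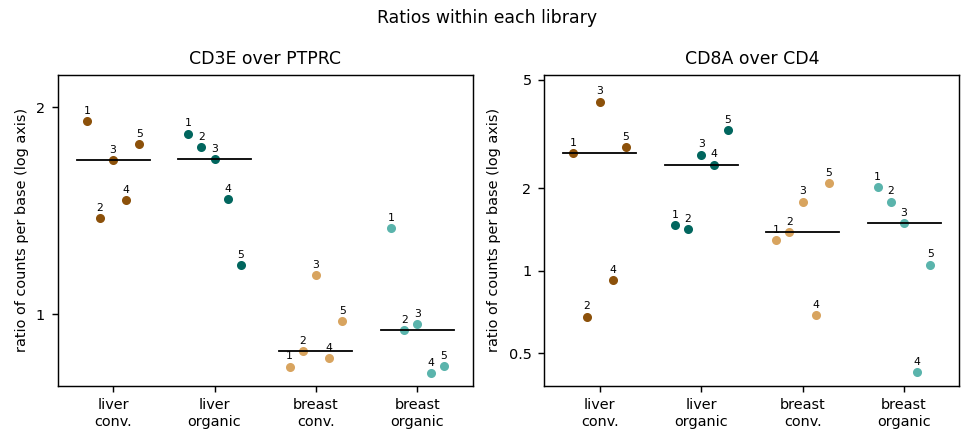
Ratios of counts per base of CD3E over PTPRC and of CD8A over the row described as CD4, in each library (log axes), with replicate numbers and bars for group medians. CD3E over PTPRC lies between 1.18 and 1.91 in liver and between 0.822 and 1.33 in breast muscle, and raising systems overlap in each panel.

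All members but CD28 shared their highest livers. Conventional replicates 3 and 5 were the highest pair for 6 of the 7 members, and conventional replicate 2 was lowest for 4 of them. The summed FPKM of the members was 56.3, 41.3, 92.9, 70.9 and 109 in conventional liver and 58.2, 56.3, 75.5, 56.3 and 59.3 in organic liver. Conventional libraries thus held both the highest and the lowest sums. As a description of spread, the mean centred log2 CPM of the members had an SD of 0.56 over conventional and 0.33 over organic livers, and a test of this difference in spread was not run.

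Measured by the root mean square difference of centred log2 CPM over the 10 livers, CD247 (0.160), LCK (0.167), CD3E (0.198) and ZAP70 (0.206) were closest to the mean of the other members. CD3D (0.369) and CD8A (0.603) were farther, and CD28 (0.843) was farthest. CD8A and CD28 lay beyond 0.518, the median distance of the other ranked genes from the mean member profile. This distance grows with the size of a gene's spread as well as with a different pattern. CD8A had the largest SD of the members (0.886 log2 units) but shared their highest livers, conventional replicates 5 and 3, which CD28 did not. In muscle the summed FPKM of the members was 12.2, 8.67, 12.3, 6.82 and 20.7 in conventional and 11.7, 9.86, 13.1, 10.6 and 16.9 in organic libraries. Conventional replicate 5 was highest and conventional replicate 4 lowest there.

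**Figure D4:**
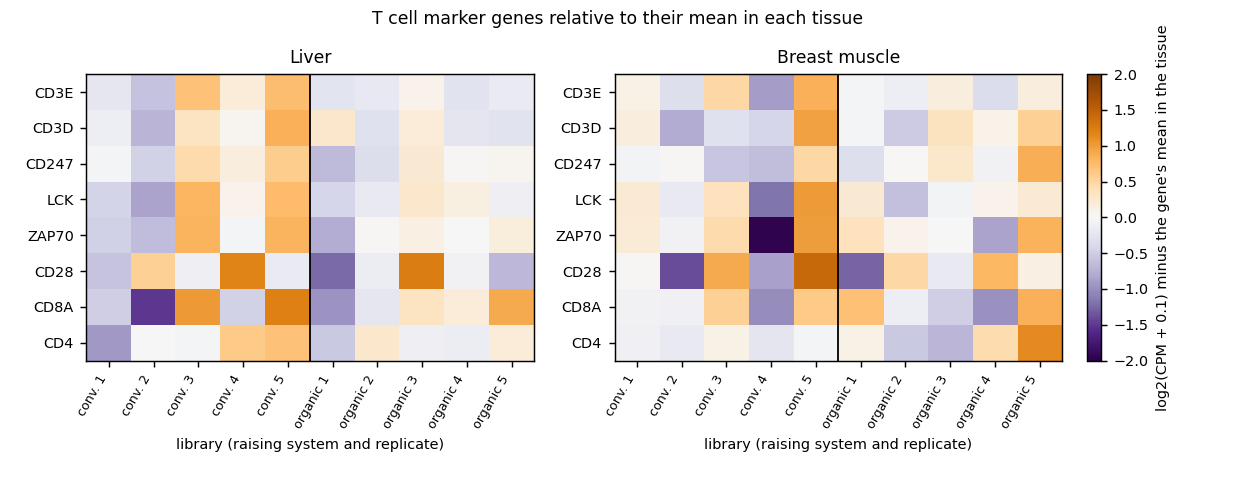
Log2(CPM + 0.1) of each T cell marker gene and of the row described as CD4, minus its mean over the 10 libraries of the tissue, with libraries in columns and colour from -2 to 2. Conventional livers 3 and 5 are high for 6 of the 7 members, CD28 is high instead in conventional liver 4 and organic liver 3, and in breast muscle conventional library 4 is lowest for 5 of the 6 members tested.

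Leukocyte genes outside the member list followed these libraries in part. Summed over 14 pan-leukocyte genes, conventional livers were at 535, 633, 1131, 961 and 895 CPM and organic livers at 694, 627, 802, 766 and 894 CPM. Conventional replicates 3 and 4 were highest by this sum, and conventional replicate 5 was level with organic replicate 5. The order depended on the measure. By mean log2 CPM of the same 14 genes, conventional replicates 3 and 5 were highest, as for the members. Organic replicate 5 (5.42) and conventional replicate 4 (5.38) came next. PTPRC was at 57.1, 60.7, 123, 98.3 and 121 CPM in conventional liver and at 58.2, 63.2, 79.8, 71.5 and 96.7 CPM in organic liver, with conventional replicates 3 and 5 highest as for the members. Cytotoxic and NK genes summed to 153, 128, 455, 248 and 346 CPM in conventional and to 349, 206, 199, 244 and 206 CPM in organic liver. Organic replicate 1, where the members other than CD3D were low on average, was second highest for this sum, close to conventional replicate 5. By mean log2 CPM of the same genes it was at 3.29, below conventional replicates 3 (4.02) and 5 (3.74). In muscle PTPRC was highest in conventional replicate 5 and lowest in conventional replicate 4, as was the summed FPKM of the members. The pan-leukocyte sum in muscle was also highest in conventional replicate 5, but lowest in conventional replicate 2. The part of leukocyte content as a whole in the members' spread was not tested.

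Of 10467 genes ranked in liver, the 8 whose profile lay nearest to the mean member profile were ITGB2, IGHVL, HK1, PTPRC, SASH3, PRKCD, TBXT and UBASH3A, at root mean square differences of 0.161 to 0.208 log2 units over 10 libraries. The median over all ranked genes was 0.518. ITGB2 encodes the common beta chain of the leukocyte integrins, SASH3 a lymphocyte adaptor and UBASH3A a phosphatase-like inhibitor of T cell receptor signalling. In muscle, over 10182 genes, the nearest were RAC2, IL2RB, IKZF1, ZC3H10, PTPRC, NBEAL2, ITGB2 and PTPN7, at 0.208 to 0.275 against a median of 0.557. PTPRC and ITGB2 are in both sets of 8. The sets were taken by distance alone and are not limited to leukocyte genes, as with HK1 and TBXT in liver and ZC3H10 in muscle.

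Other genes of the T cell pathways, in lists put together with earlier results of these data known, gave no call between raising systems in either tissue (edgeR, adjusted over all genes). Of 22 T cell receptor signalling genes tested in liver, 17 were lower and 5 higher in organic birds, with a median log2 fold change of -0.20. Over all genes tested in liver, 52.3% were lower and the median was -0.01. The signalling genes with the smallest p were BCL10, an adaptor towards NF-kappaB, at 0.29 ± 0.13 (SE), PLCG1, the phospholipase that LCK and ZAP70 signalling activates, at -0.43 ± 0.21, and the ubiquitin ligase CBLB at -0.31 ± 0.19. Their edgeR adjusted p-values were 0.653, 0.653 and 0.697. PLCG1 and CBLB were at like levels in liver and muscle, unlike the members, and are not read here as T cell content. Of 13 costimulatory and inhibitory receptors and ligands, 8 were lower and 5 higher in organic liver, with the costimulator ICOS at -0.57 ± 0.32. Of 15 T cell transcription factors, 9 were lower and 6 higher, with RUNX1 at -0.54 ± 0.33 and IKZF3 at -0.49 ± 0.33.

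Of 11 cytotoxic and NK genes, 7 were lower and 4 higher in organic liver. IL2RB, the interleukin 2 receptor beta chain, was at -0.59 ± 0.31 and the chemokine XCL1 at -0.58 ± 0.36. Of 11 homing and cytokine receptors, 8 were lower and 3 higher, with the lymph node homing receptor CCR7 at -0.66 ± 0.32 and ITGB7 at -0.50 ± 0.29. For comparison, 12 of 14 pan-leukocyte genes were lower and 2 higher (median -0.13), with DOCK2 at -0.49 ± 0.22, and none passed. The genes named from these lists were picked by smallest p and are all lower ones, and the higher ones are only counted. Over all genes tested in liver, 52.3% were lower. Among other cell types, 4 of 7 B cell markers and 8 of 14 macrophage markers were higher in organic liver, and 4 of 4 heterophil and 5 of 8 thrombocyte markers were lower. Of 7 erythrocyte markers 6 were higher, in liver and in muscle alike, and their summed level in liver was 248 to 656 CPM in conventional and 222 to 1033 CPM in organic libraries. None of these genes passed, and their part in the members' values was not tested.

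In breast muscle 14 of 20 T cell receptor signalling genes were lower in organic birds, with a median log2 fold change of -0.08. Over all genes tested in muscle, 52% were lower and the median was -0.01. Of 9 transcription factors 6 were lower, with FOXO1 at 0.75 ± 0.30 and IKZF3 at -0.87 ± 0.39. Of 8 cytotoxic and NK genes 4 were lower and 4 higher, with IL12RB2, an interleukin 12 receptor chain, at 0.76 ± 0.39. Of 6 homing receptors 4 were lower, with the integrin ITGA4 at -0.63 ± 0.25, and of 8 costimulatory genes 5 were higher. None of them passed the edgeR test.

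By count of genes called, the T cell lists were mostly, but not wholly, higher in liver. Of all genes tested, 42.5% were called as higher and 39.1% as lower there. Summed CPM, scaled within each tissue, overlapped between tissues for receptor signalling genes. Its group means, conventional first, were 307 and 270 in liver and 328 and 307 in muscle. This sum is not a reading of T cells alone. It holds genes at like levels in both tissues, among them FYN (log2 -0.05 ± 0.14 SE), PLCG1 (-0.04 ± 0.15) and CBLB (-0.003 ± 0.14). The sum of transcription factors overlapped too (147 and 138 against 131 and 154). For the other T cell lists every liver sum was above every muscle sum. Of 22 receptor signalling genes 13 were higher and 2 lower, from THEMIS, a T cell development protein, at 3.61 ± 0.57 to NFATC1, a transcription factor that muscle also uses, at -6.24 ± 0.25. All 11 cytotoxic and NK genes passed as higher in liver (median 2.61), from GZMA, a granzyme, at 5.59 ± 0.53 to IL18R1 at 1.21 ± 0.30. Of 13 costimulatory and inhibitory receptors and ligands 11 passed as higher and none as lower. The list holds ligands that other cells also carry, among them CD274, which led it at 2.90 ± 0.27. Of 15 transcription factors 11 were higher and 4 lower, from TCF7, a factor of naive T cells, at 5.62 ± 0.33 to BACH2 at -1.42 ± 0.27. Of 11 homing and cytokine receptors 9 were higher and 2 lower, from IL7R at 4.28 ± 0.23 to S1PR1, which endothelium also carries, at -0.68 ± 0.13.

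**Figure D5:**
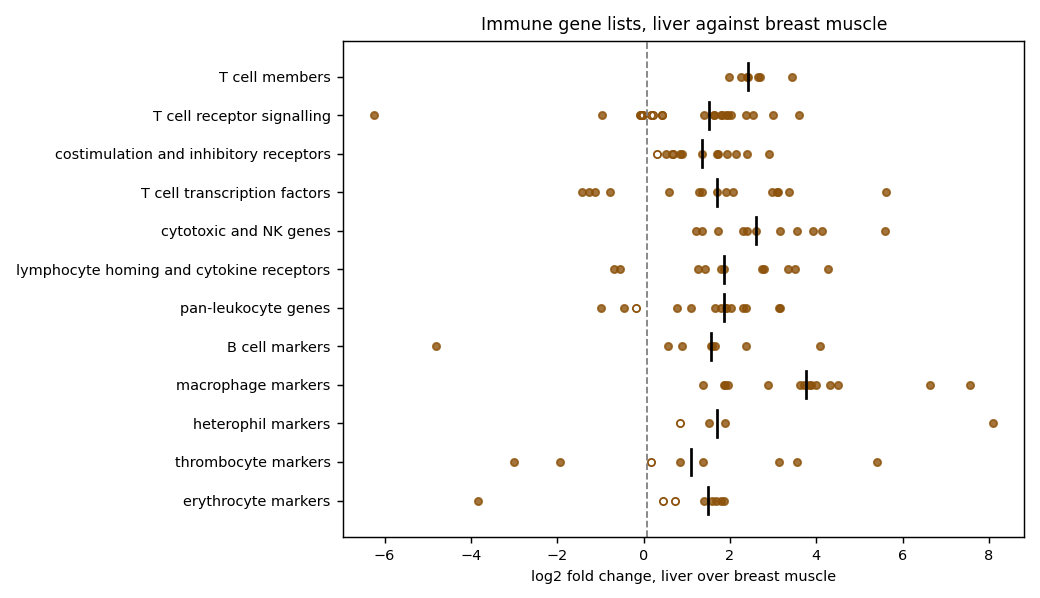
Log2 fold change, liver over breast muscle, of each tested gene in the T cell and other blood cell lists (edgeR, filled where the adjusted p is under 0.05, open otherwise); bars are list medians and the dashed line is the median of all genes, 0.07. The T cell members centre on 2.42 and the macrophage markers on 3.77.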

How the data were processed

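Read counts (whole numbers) and FPKM were deposited per gene and library in 1 table, beside coordinates, names and the length of each gene in bases. HISAT2 2.0.5, DESeq2 1.20.0 and the build GRCg6a stand in the submitters' processing notes, without a role. A counting tool is not named in the sources used here. Per the labels, RNA was extracted with TRIzol, with a RIN of at least 7.7, from which 1 µg entered each library. Checked against the counts, each deposited FPKM value is the count per base of gene length, scaled by a median-of-ratios size factor of its library.

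From the deposited counts, edgeR 4.0.16 (R 4.3.3, TMM, filterByExpr with a minimum count of 10, robust quasi-likelihood F-test, two-sided, Benjamini-Hochberg over all genes tested, threshold 0.05) was fitted per tissue for raising system, and over all 20 libraries for tissue and interaction. Alternatives were DESeq2 1.42.0, limma 3.58.1 on log2(FPKM + 0.1) and log2(FPKM + 1), median-of-ratios scaling, no low-count filter, a replicate block, and leaving out each library. The procedure was tested on simulated data. Ratios used exact permutation tests.

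The members and gene lists were chosen with earlier results of these data known. All members are named; of each list, the genes with the smallest p or, between tissues, the largest and smallest fold changes. Of 13482 rows with no gene name, 720 were named through RefSeq (GRCg7b, names only), and 50 of 222 list entries matched no row. No sequence is shown.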

Additional observations from a re-analysis of the deposited data

Results flagged for a closer look

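For 2 values, 1 library stood apart from the other 4 of its group by Dixon's criterion, of 40 groups examined, and chance flags about 1 in 20 groups. ZAP70 was at 5.23 CPM in organic liver replicate 1, where the other organic livers had 9.02 to 10.1 CPM. That library is also the deepest of the 20, and the part of depth was not tested. CD28 was at 11.1 CPM in organic liver replicate 3, where the other organic livers had 1.91 to 4.42 CPM.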

How the results depend on the processing

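All 7 members stayed higher in liver, past the edgeR or alternative test, under every alternative run (the conventional or the organic libraries alone, another scaling, DESeq2, limma, no filter, the replicate block and each left-out library). The log2 difference of CD28 was 1.29 on the log2(FPKM + 1) scale, whose pseudocount compresses low values. No member was called between raising systems, or in the interaction, under any alternative, also with the CD4 row counted as a member, an alternative chosen after seeing the data. DESeq2 called 31 genes in liver and 15 in muscle, where edgeR called 0. Leaving out 1 library gave 0 to 1 genes in muscle (1 without conventional replicate 4). Several small differences changed sign, and the cause was not tested. CD8A in liver was 0.061 under the replicate block, 0.10 on log2(FPKM + 0.1) and 0.042 on log2(FPKM + 1). ZAP70 in muscle was 0.11, 0.14 and 0.023 in that order, the interaction of CD28 -0.073, -0.28 and -0.16, and that of CD8A 0.018, 0.075 and 0.019. As differences of medians, the log2 CD8A to CD4 ratio was -0.14 and CD3E to PTPRC in liver 0.0052. Leaving out 1 library gave -0.37 to 0.018 for CD3D in liver, -0.79 to 0.086 for CD28 in liver and -0.40 to 0.23 for CD8A in liver. In muscle it gave -0.44 to 0.10 for LCK, -0.29 to 0.31 for ZAP70, -0.38 to 0.049 for CD3E, -0.083 to 0.44 for CD3D, -0.22 to 0.26 for CD8A and -0.026 to 0.53 for the CD4 row. Without a change of sign, it gave -0.43 to -0.053 for LCK and -0.45 to -0.091 for ZAP70 in liver and 0.080 to 0.51 for CD247 in muscle. Interactions were -0.34 to 0.19 (LCK), -0.59 to 0.00080 (ZAP70), -0.55 to 0.36 (CD28) and -0.43 to 0.18 (CD8A). The log2 ratios ranged from -0.12 to 0.53 (CD8A to CD4), -0.12 to 0.043 (CD3E to PTPRC, liver) and -0.067 to 0.12 (muscle). The replicate numbers are shared only as numbers. Deviations of same-numbered liver and muscle libraries correlated at 0.047 to 0.191, within a tissue at -0.18 to 0.14, and 9 of 10 livers correlated best with the muscle library of their own number, a hint from the data. With the replicate block, 0, 0, 7 and 0 members were called in liver, muscle, tissue and interaction, as without it. CD28 and CD8A in muscle rest on low counts, of 1 to 24 a library.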
